A study of Mus musculus with 8 samples.

Results

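The genes described here encode CD249 itself (Enpep) and proteins that make, cut or sense angiotensin peptides: Agt, Ace, Agtr1a, Agtr2, Mme, Anpep, Lnpep and Prcp. They were chosen by name, with earlier results of these data known, and each of the 9 symbols has 1 row among the 25509 mouse gene rows of the count table. All 9 passed the low-count filter. RNA came from digested lungs of 4 C57Bl6/J mice of wild-type genotype, numbered 2, 7, 8 and 10, with no treatment named and ages not given in the sources used here. From each lung, cells negative for CD45 (leukocytes), CD326 (epithelium) and CD31 (endothelium) were sorted into a fraction with surface CD249 (CD249+) and one of as many cells without it (CD249−), giving 4 libraries of each. Library totals ran from 23011383 to 31906414 counts, so that 1 count stood for 0.03 to 0.0417 CPM (the standard count relative to the library total). The 4 values of a fraction are given in the order of mice 2, 7, 8 and 10.

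Angiotensinogen, the product of Agt, is the protein from which all angiotensins are cut. Renin releases angiotensin I, and angiotensin-converting enzyme (Ace), abundant on lung capillary endothelium, trims it to angiotensin II, which acts through the type 1 and type 2 receptors (Agtr1a, Agtr1b and Agtr2 in the mouse). Glutamyl aminopeptidase (Enpep, CD249) removes the first, acidic residue of angiotensin II to give angiotensin III, and alanyl aminopeptidase (Anpep) shortens that further. Neprilysin (Mme), prolylcarboxypeptidase (Prcp) and cystinyl aminopeptidase (Lnpep) cut or bind other products of the series.

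Enpep, Agt, Mme and Agtr1a were higher in CD249+ cells, Ace and Prcp were lower, and Agtr2, Anpep and Lnpep did not pass the test. By edgeR's quasi-likelihood test 6 of the 9 genes were called at an adjusted p under 0.05 (66.7%), with Enpep, whose protein defined the sort, among them. The same test called 30.8% of the 14524 genes tested. By direction this was 16.9% higher and 13.9% lower. All 6 called genes moved the same way in all 4 mice. With mouse as a block, to pair the fractions of each lung, the same 4 were called higher and 2 lower. That fit called 5298 genes in place of 4468. The CPM ranges of the fractions did not overlap for 5 of the 9, against 33.6% of genes tested. The median log2 fold change was 1.83 over the 9 genes and -0.02 over all genes tested. That median is the value of Agtr2, which was not called and had few counts. Since the 9 were chosen with earlier results of these data known, their shares and median describe the list and are no test of it. With library size as the only scaling, all genes gave 2106 higher and 2689 lower calls in place of 2455 and 2013, while the 9 genes gave the same 4 higher and 2 lower.

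**Figure D1:**
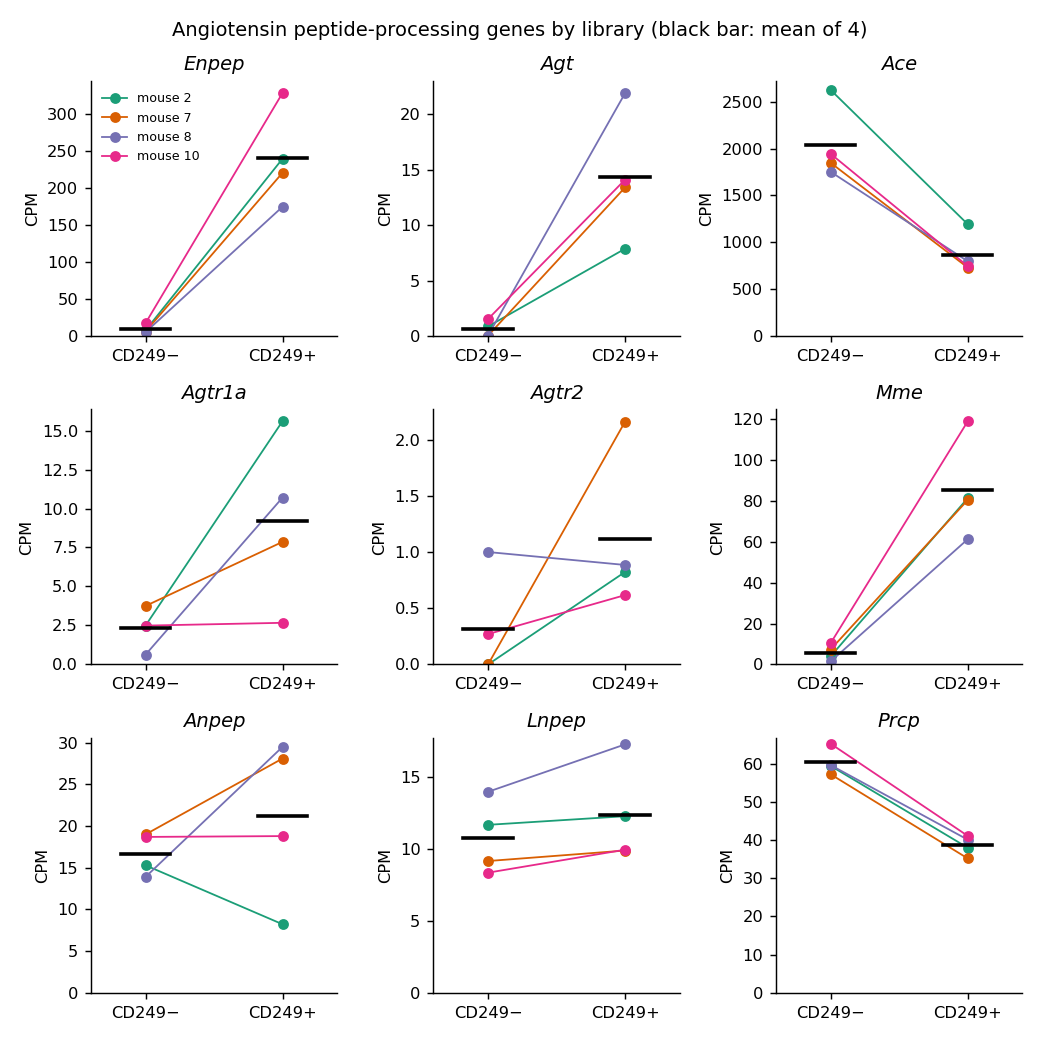
CPM (TMM-scaled, linear axes from 0) of the 9 genes in CD249− and CD249+ cells. Each line joins the fractions of 1 mouse, and black bars are means of 4 libraries. Enpep, Agt and Mme rise in every mouse, Ace and Prcp fall in every mouse, and Agtr1a of mouse 10 stays near 2.5 to 2.7 CPM.

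Promoter windows are given first for 3 of the genes that rose and for Ace, the most abundant gene that fell, to show how the starts of genes that moved together differ. RefSeq entries on GRCm38.p6 were found for 8 of the 9 genes, all but Agtr1a, each with 250 bases before and 50 after an annotated start. The windows below are those of Enpep (chr3:129332700-129332999, minus strand), Mme (chr3:63295622-63295921, plus strand, 1 of 3 windows for this gene), Agt (chr8:124569657-124569956, minus strand) and Ace (chr11:105967698-105967997, plus strand, the first annotated start). Capitals mark matches, on either strand, to the TATA box (searched as TATAAA), to CCAAT, or to the GC box (searched as GGGCGG).
Enpep: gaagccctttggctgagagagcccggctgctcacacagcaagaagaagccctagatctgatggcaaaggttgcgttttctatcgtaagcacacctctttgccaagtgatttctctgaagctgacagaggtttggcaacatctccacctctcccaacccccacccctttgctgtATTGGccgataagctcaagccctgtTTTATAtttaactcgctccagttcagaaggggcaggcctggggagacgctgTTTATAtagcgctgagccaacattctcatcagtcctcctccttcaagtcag
Mme: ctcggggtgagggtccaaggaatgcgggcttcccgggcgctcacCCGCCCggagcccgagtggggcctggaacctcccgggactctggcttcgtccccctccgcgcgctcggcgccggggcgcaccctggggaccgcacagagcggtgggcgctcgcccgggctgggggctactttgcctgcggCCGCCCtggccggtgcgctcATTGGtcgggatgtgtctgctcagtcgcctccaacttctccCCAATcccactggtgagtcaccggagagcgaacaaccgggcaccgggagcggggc
Agt: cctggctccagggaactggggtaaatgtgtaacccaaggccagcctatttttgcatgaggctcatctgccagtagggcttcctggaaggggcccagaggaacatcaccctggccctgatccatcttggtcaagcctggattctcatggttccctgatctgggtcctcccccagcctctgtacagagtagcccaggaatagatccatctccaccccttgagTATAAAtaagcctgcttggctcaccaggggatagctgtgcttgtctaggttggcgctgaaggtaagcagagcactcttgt
Ace: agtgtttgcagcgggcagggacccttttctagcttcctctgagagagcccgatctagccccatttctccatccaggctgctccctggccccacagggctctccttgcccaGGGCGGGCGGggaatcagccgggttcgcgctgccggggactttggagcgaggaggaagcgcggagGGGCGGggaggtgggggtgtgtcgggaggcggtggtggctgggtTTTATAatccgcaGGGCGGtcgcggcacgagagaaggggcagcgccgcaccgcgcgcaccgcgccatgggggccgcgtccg

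The Agt window held TATAAA 30 bases before the start, and the Ace window held it on the opposite strand 31 bases before. Enpep had it on the opposite strand 52 bases before and again 1 base before the start, and CCAAT on the opposite strand 77 bases before. In Mme there was no TATAAA, but 2 CCAAT and 2 GC box matches. Ace had 4 GC box matches, of which 1 pair overlaps, and Enpep and Agt had none. Over all 32851 windows in the table, 13.6% held TATAAA, 37.4% CCAAT and 35.7% GGGCGG. CG dinucleotides numbered 7 in Enpep, 1 in Agt, 32 in Mme and 29 in Ace, with a median of 7 over all windows. The other Mme windows held 4 and 29 CG dinucleotides, with 0 and 1 CCAAT and 1 and 2 GC box matches. A second Ace window, from 105974939, held 2 CG dinucleotides and 1 CCAAT match, with neither TATAAA nor a GC box match. The counts of Mme and Ace thus depend on the start chosen. By GENCODE M21 the minus-strand gene Enpep starts at 129332720, inside its window but not at the RefSeq start. Its distances therefore also depend on the start chosen.

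On GRCm38 the remaining genes lie as follows, by GENCODE M21. The receptor genes are Agtr1a (ENSMUSG00000049115.14) on chromosome 13, 30336441 to 30382867, and Agtr2 (ENSMUSG00000068122.10) on chromosome X, 21484544 to 21489164, both on the plus strand. The peptidase genes are Anpep (ENSMUSG00000039062.15) on chromosome 7, 79821803 to 79861059, and Lnpep (ENSMUSG00000023845.6) on chromosome 17, 17521410 to 17625050, both on the minus strand, and Prcp (ENSMUSG00000061119.6) on chromosome 7, 92874470 to 92934583, on the plus strand. The identifiers of the others are ENSMUSG00000028024.14 for Enpep, ENSMUSG00000031980.9 for Agt, ENSMUSG00000020681.14 for Ace and ENSMUSG00000027820.12 for Mme.

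Agt, the precursor, was scarce in CD249− cells and present in all CD249+ libraries. The CD249− libraries held 26, 1, 1 and 51 counts, or 0.863, 0.035, 0.0417 and 1.53 CPM. The CD249+ libraries gave 7.87, 13.4, 21.9 and 14.1 CPM. Every CD249+ value lay above every CD249− value, and both low libraries were those of mice 7 and 8. The log2 fold change was 4.48 (SE 0.88, adjusted p = 0.0036 by edgeR), a fold whose size rests on counts near 0. Leaving out libraries or mice moved it from 3.84 to 5.45, with limma-voom at 5.54. In mice 2 and 10, where both fractions had more than a few counts, Agt was 9.12-fold and 9.21-fold higher in CD249+ cells. Agt lies on chromosome 8, 124556534 to 124569706, minus strand (GRCm38).

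Ace, the most abundant of the 9, was 2.36-fold lower in CD249+ cells. The CD249− libraries stood at 2627, 1849, 1753 and 1945 CPM, and the CD249+ libraries at 1194, 731, 798 and 746 CPM. Mouse 2 was highest in both fractions, and the fractions did not overlap. The log2 fold change was -1.24 (SE 0.20, adjusted p = 0.00127 by edgeR), with -1.14, -1.34, -1.14 and -1.38 within the single mice. Ace (chromosome 11, 105967945 to 105989964, plus strand, GRCm38) shares 295 exon bases with the antisense gene Gm11651, and these libraries do not mark strand.

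Enpep served as the check on the sort, since CD249 protein divided the cells, and its difference is no independent finding. Its counts were 227, 171, 123 and 576 in CD249− and 7276, 6256, 4938 and 9617 in CD249+ libraries. Within the mice it was 31.8, 37, 34.1 and 19.1 times as high in CD249+ cells. Mouse 10 had the highest Enpep count in both fractions and the smallest ratio. Leaving out libraries or mice gave log2 fold changes from 4.55 to 5.27. CD249− cells thus held Enpep transcripts in every library, and whether they came from CD249+ cells that crossed the gate was not tested.

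Mme, the gene of neprilysin, rose with Enpep. The CD249− fraction gave 3.98, 7.32, 1.46 and 10.4 CPM, and the CD249+ fraction 81.4, 80.5, 61.3 and 119 CPM. As for Enpep, mouse 10 was highest and mouse 8 lowest in each fraction. The log2 fold change was 3.87 (SE 0.49, adjusted p = 0.000327 by edgeR), a 14.6-fold difference. Single mice gave 20.4-fold, 11-fold, 42-fold and 11.5-fold. Mme lies on the same chromosome as Enpep (chromosome 3, 63241537 to 63386030, against 129269175 to 129332720, GRCm38), far from it.

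Prcp fell by a small and even amount. The gene encodes a lysosomal and surface peptidase that removes the last residue after proline. The CD249− libraries gave 59.4, 57.2, 59.6 and 65.2 CPM, and the CD249+ libraries 38.0, 35.2, 40.1 and 41.1 CPM. The fractions did not overlap, and the log2 fold change was -0.65 (SE 0.09, adjusted p = 0.000678 by edgeR). Within mice it was -0.64, -0.70, -0.57 and -0.67, the narrowest spread of the 6 called genes.

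The other two aminopeptidases of the set did not pass. For Anpep the CD249− libraries gave 15.3, 19.0, 13.9 and 18.7 CPM, and the CD249+ libraries 8.23, 28.1, 29.5 and 18.8 CPM. It was lower in CD249+ cells of mouse 2, close to equal in mouse 10 and higher in mice 7 and 8, so the ranges overlapped. The log2 fold change was 0.34 (SE 0.34, adjusted p = 0.49 by edgeR). Without the CD249+ library of mouse 2 it was 0.62 and was called (adjusted p = 0.0463 by edgeR). Lnpep stood between 8.37 and 14.0 CPM in CD249− and between 9.91 and 17.3 CPM in CD249+ cells (log2 fold change 0.19, SE 0.25, adjusted p = 0.593 by edgeR). Lnpep was slightly higher in CD249+ cells of all 4 mice, by 0.07, 0.11, 0.30 and 0.25 on the log2 scale.

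Agtr1a, the main type 1 receptor gene of the mouse, was higher in CD249+ cells on average but varied between mice. The CD249− libraries gave 2.49, 3.75, 0.626 and 2.49 CPM, and the CD249+ libraries 15.6, 7.86, 10.7 and 2.67 CPM. The CD249+ library of mouse 10 lay inside the CD249− range, and the other 3 lay above it. The log2 fold change was 1.97 (SE 0.60, adjusted p = 0.0316 by edgeR). With mouse as a block it was 1.91, nearer the threshold (adjusted p = 0.0459 by edgeR). The call was lost without 5 of 8 single libraries (those of mice 2 and 10 in CD249− cells and of mice 2, 7 and 8 in CD249+ cells) and without both libraries of mouse 2, 7 or 8. There the adjusted p ran from 0.0543 to 0.125 by edgeR, and limma-voom gave an adjusted p of 0.0895 with all libraries.

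Agtr1b, the second type 1 receptor gene, was not among the 9 but shares much of its sequence with Agtr1a, so estimated counts of the pair are uncertain where reads fit both. The CD249− libraries held 31, 0, 0 and 15 counts, and the CD249+ libraries 183, 263, 213 and 161 counts. Both libraries at 0 were again those of mice 7 and 8. The log2 fold change was 4.22 (SE 1.03, adjusted p = 0.0115 by edgeR), and leaving out libraries or mice gave 3.66 to 5.51. Scaled for length, Agtr1a made up 66.6%, 39.4%, 52.3% and 27.2% of the pair in CD249+ cells. Agtr2, the type 2 receptor gene, had 0 to 24 counts in CD249− and 18 to 61 counts in CD249+ libraries. Its ranges overlapped, and it did not pass (log2 fold change 1.83, SE 1.24, adjusted p = 0.301 by edgeR), so that a difference was not detectable at this depth. Leaving out libraries or mice moved the Agtr2 value between 0.88 and 3.64.

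**Figure D2:**
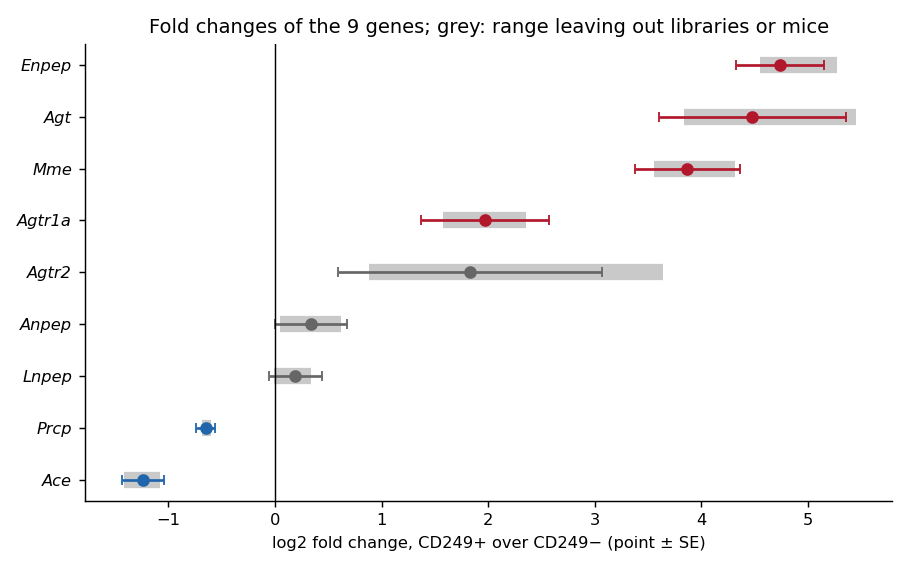
Log2 fold change of the 9 genes, CD249+ over CD249− (points, with SE as whiskers; red called higher, blue called lower, grey points not called). Grey bands span the values found when each library or each mouse was left out. The bands of all genes but Lnpep stay on 1 side of 0, that of Anpep from 0.05 up, and that of Lnpep reaches -0.01.

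To compare levels between genes, counts were divided by merged exon length and scaled to a fixed library sum (TPM). A gene with long annotated end regions, such as Mme or Lnpep, reads low on this scale. In CD249− cells the mean TPM fell in the order Ace (1386 ± 278), Prcp (39.4 ± 2.74), Anpep (14.5 ± 2.16), Enpep (6.88 ± 4.39), Agtr1a (3 ± 1.63), Lnpep (2.74 ± 0.648), Mme (1.80 ± 1.22), Agt (1.18 ± 1.39) and Agtr2 (0.343 ± 0.508; SD, n = 4). Ace and Prcp each stood clear of the next gene, and from Anpep down each gene's range overlapped that of its neighbour. In CD249+ cells Ace (557 ± 168) was followed by Enpep (172 ± 43.2), Agt (25.4 ± 10.3), Mme (24.9 ± 6.5), Prcp (23.7 ± 1.99), Anpep (17.1 ± 7.83), Agtr1a (11.3 ± 7.07), Lnpep (2.96 ± 0.904) and Agtr2 (1.13 ± 0.667; SD, n = 4). There Ace and Enpep stood clear of the next gene and Lnpep of Agtr2, while neighbours from Agt to Lnpep overlapped.

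Enpep thus moved from place 4 to place 2 among the 9, and from place 10046 to place 935 of 25251 genes ordered by mean TPM. Ace moved from place 75 to place 225. Of the summed TPM of the surface aminopeptidases Enpep, Anpep and Lnpep, Enpep made up 26.1%, 19.5%, 20% and 41.8% in the CD249− libraries. In CD249+ cells its share was 94.7%, 86.3%, 81.6% and 93%. The TPM ratio of Enpep to Ace, the enzyme that makes its substrate, ran from 0.00322 to 0.00998 in CD249− cells and from 0.225 to 0.496 in CD249+ cells. Ace transcripts remained more abundant than Enpep transcripts in every library. Since CD249 protein divided the cells, the rise of Enpep in place, share and ratio is no independent finding. The ratio also holds the lower Ace level of CD249+ cells.

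**Figure D3:**
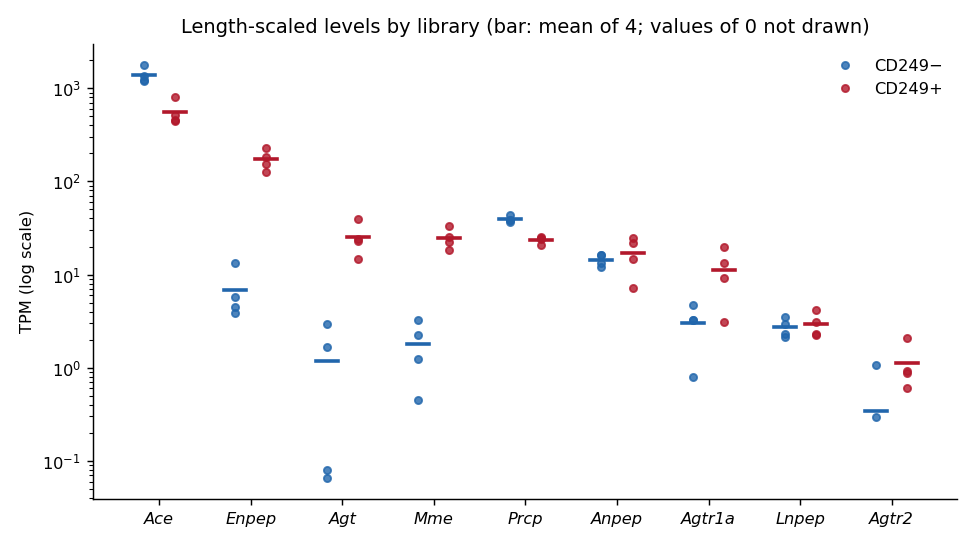
TPM (log axis) of the 9 genes in the 4 CD249− (blue) and 4 CD249+ (red) libraries, ordered by the CD249+ mean; bars are means of 4, and the 2 CD249− libraries in which Agtr2 was 0 are not drawn. Ace is highest in both fractions, and Enpep stands second in CD249+ cells, at 127 to 228 TPM.

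Both fractions carried RNA of cell types that the gate was to exclude (endothelium, leukocytes and epithelium), and marker levels differed between the fractions. The other markers listed here are of cell types that the gate did not name, fibroblasts among them. All 10 endothelial markers fell in CD249+ cells, and their summed level was 11672 to 15716 CPM in CD249− and 3771 to 7145 CPM in CD249+ libraries, with Pecam1, the gene of CD31, at -1.45 (log2 fold change). Of 8 fibroblast markers 7 rose, with sums of 5158 to 12614 and 14019 to 25091 CPM, and all 8 were detected in every library. Of 8 alveolar fibroblast markers 7 rose and Scn7a fell (sums 976 to 1428 and 5484 to 10966 CPM). Of 9 pericyte markers 8 rose, with sums of 86.4 to 136 and 344 to 507 CPM, and 5 of 6 smooth muscle markers rose, or 6 with mouse as a block (sums 170 to 736 and 875 to 1737 CPM). Of 10 leukocyte markers 1, H2-Aa, fell (sums 1713 to 2689 and 1205 to 3430 CPM), while with mouse as a block 6 fell: H2-Aa, Ptprc, Cd68, Cd3e, Csf3r and S100a8. Ptprc, the gene of CD45, stood at -0.96 (adjusted p = 0.0635 by edgeR, and 0.0126 with the block). Epithelial markers summed to 157 to 717 CPM in CD249− and 411 to 8331 CPM in CD249+ libraries. The highest sum was that of mouse 10, with Sftpc at 7551 CPM against 320 to 781 CPM in the other CD249+ libraries. Of 8 markers Sftpc and Sftpb were called higher, Cdh1 being added with mouse as a block. Epcam, the gene of CD326, stood at 0.10 (adjusted p = 0.894 by edgeR). Of 5 mesothelial markers 4 fell (sums 75.1 to 189 and 22.8 to 50.4 CPM), and 4 of 7 platelet and red cell markers fell, or 6 with mouse as a block (sums 104 to 771 and 27.7 to 218 CPM). The part of any of these cell types, inside or outside the gate, in the differences of the 9 genes was not tested, other than against the references given next. In sorted bulk RNA, fewer cells of a type and less RNA per cell cannot be told apart.

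Each of the 9 genes was therefore also measured against 2 references in the same library: the mean log2 CPM of the 10 endothelial markers, which differed by -1.48 between fractions, and that of the 8 fibroblast markers, which differed by 1.41. Of the 18 two-sided exact permutation tests (n = 4 against 4), 14 passed at an adjusted p of 0.0367, each at the smallest p that free assignment allows, 0.0286. Because the references themselves differed between fractions, a gene of equal CPM in both moves against each of them. The share of all genes that would pass was not computed, so the count of 14 has no background. Both tests of Enpep, whose protein defined the sort, are among the 14 and are no independent finding. Where only the fractions of 1 mouse could be swapped, as the pairing by lung implies, the smallest two-sided exact permutation p is 0.125, so 0 of the 18 could pass. The calls below rest on free assignment, which ignores that pairing, and are given as descriptions. Relative to endothelial markers, Ace stood at 1.43, 1.25, 1.17 and 1.25 log2 units in the CD249− libraries and at 1.43, 1.52, 1.51 and 1.54 in the CD249+ libraries. The mean difference was 0.23 (exact permutation adjusted p = 0.0367), with 0.01, 0.27, 0.35 and 0.29 within the single mice, so that mouse 2 showed next to none. Relative to fibroblast markers Ace was 2.66 log2 units lower in CD249+ cells, with the same adjusted p by the exact permutation test.

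Enpep, Agt and Mme were higher in CD249+ cells on both references, which for Enpep the sort had fixed in advance. Against fibroblast markers they gained 3.46, 3.81 and 2.74 log2 units (exact permutation adjusted p = 0.0367 each). Against endothelial markers they gained 6.35, 6.70 and 5.63 log2 units. Agtr1a gained 3.41 units against endothelial markers (exact permutation adjusted p = 0.0367) but 0.52 units against fibroblast markers, a difference within the spread between libraries (exact permutation adjusted p = 0.543). Prcp fell by 2.05 units against fibroblast markers and gained 0.83 units against endothelial ones, and both passed. Anpep, not called on the CPM scale, fell by 1.22 units against fibroblast markers (exact permutation adjusted p = 0.0367). Lnpep stood at -1.22 units against them, which did not pass (exact permutation adjusted p = 0.0686), although it was lower in all 4 mice. Against fibroblast markers Agtr2 gave 0.98 (exact permutation adjusted p = 0.363). Against endothelial markers Lnpep gained 1.66 units and Agtr2, with few counts, 3.87 units. Both passed (exact permutation adjusted p = 0.0367 each) although neither was called on the CPM scale. Anpep gained 1.67 units there and did not pass (exact permutation adjusted p = 0.0964).

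**Figure D4:**
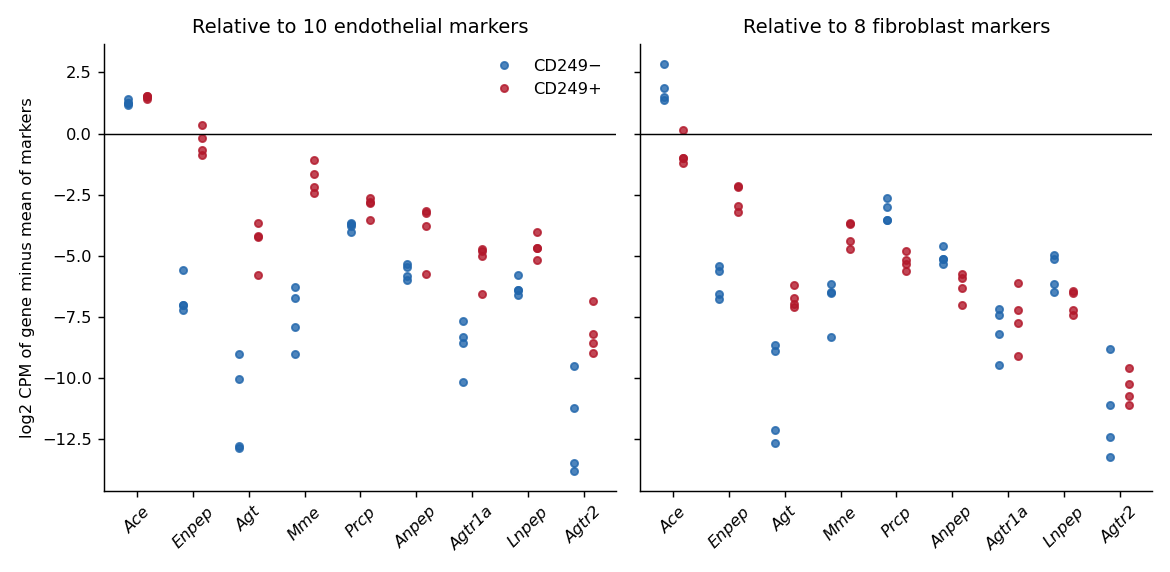
Log2 CPM of each gene minus the mean log2 CPM of 10 endothelial markers (left) or 8 fibroblast markers (right) in the same library, for 4 CD249− (blue) and 4 CD249+ (red) libraries. Relative to the endothelial markers Ace lies 0.23 log2 units higher on average in CD249+ cells, and Enpep, Agt and Mme lie higher there in both panels.

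Other genes of the angiotensin system moved in both directions. Of 23 listed, 21 were in the table and 15 were tested, of which 2 rose, 3 fell and 10 did not pass, with a median log2 fold change of -0.07. The test called 30.8% of all genes tested, a share near that of this list. Besides Agtr1b, Atp6ap2, the prorenin receptor gene, averaged 91.7 ± 5.63 CPM in CD249− and 130 ± 14.3 CPM in CD249+ cells (SD, n = 4) and rose by 0.51 on the log2 scale. Agtrap, which encodes a protein that promotes internalization of the type 1 receptor, fell by 0.61. Aplnr, the apelin receptor gene of endothelium, fell by 1.38, and Ace3, a relative of Ace that lies beside it on chromosome 11, fell by 1.13. Apln, the apelin gene, was lower in CD249+ cells of all 4 mice without passing (-1.26, adjusted p = 0.0731 by edgeR). It was called with mouse as a block (-1.37, adjusted p = 0.000864 by edgeR) and by limma-voom (adjusted p = 0.0389). With library size as the only scaling, 5 genes of this list fell, Thop1 and Nr3c2 being added. The Ace3 call did not hold when mouse 7 was left out (adjusted p = 0.0689 by edgeR).

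Several links of the pathway were at or near 0. Ren1, the renin gene, had 1 and 13 counts in CD249− cells of mice 2 and 10 and 0 in the other 6 libraries. Mas1, the receptor gene for angiotensin 1-7, had 0 to 6 counts in CD249− and 4 to 19 counts in CD249+ libraries and was not tested. Cma1, the mast cell chymase gene, stood at 0.432 to 2.25 CPM in CD249− and 0.425 to 0.79 CPM in CD249+ cells, a difference that did not pass. Of the 6 mast cell markers, 3 were tested and Kit fell, while Cma1 and Cpa3 (log2 fold change 1.55) did not pass. Their sums of 544 to 890 and 183 to 431 CPM were almost all Kit, at 543 to 889 and 181 to 428 CPM, and Tpsb2 was at 0 throughout. Kit had a log2 fold change of -1.30, and the 10 endothelial markers had a median of -1.45. Which cells gave the Kit RNA was not tested, so its fall is not a reading of mast cells.

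Among 12 kinin genes, whose peptides Ace and Mme also cut, 6 were tested, and 2 rose and 2 fell. Over all genes tested, 16.9% were called higher and 13.9% lower. The bradykinin receptor genes went opposite ways. Bdkrb1, the inducible receptor, gave 2.56, 10.4, 7.01 and 19.2 CPM in the CD249− and 13.1, 48.4, 39.2 and 53.8 CPM in the CD249+ libraries (log2 fold change 1.98, SE 0.58, adjusted p = 0.0261 by edgeR). It was higher in CD249+ cells of all 4 mice, while the ranges overlapped. Bdkrb2, the constitutive receptor, fell by 1.11 (SE 0.30, adjusted p = 0.0176 by edgeR). The Bdkrb1 call did not hold when mouse 7 or mouse 8 was left out, whole or in either fraction, or when the CD249+ cells of mouse 10 were (adjusted p up to 0.122 by edgeR). That of Bdkrb2 did not hold when mouse 2, 7 or 10 was left out, or the CD249− cells of mouse 2 (adjusted p up to 0.102 by edgeR). The carboxypeptidase gene Cpm rose by 1.34 and Xpnpep1 fell by 0.50. Cpm was not called when mouse 7 was left out (adjusted p = 0.0527 by edgeR) and gave 0.86 without the CD249+ cells of mouse 10. Xpnpep1 was not called when mouse 8 was left out (adjusted p = 0.053 by edgeR), and the kininogen genes Kng1 and Kng2 were at 0 in every library. These leave-out fits did not pair the fractions. With all libraries and mouse as a block, Bdkrb1 stood at 2.12 (adjusted p = 5.47e-05 by edgeR) and Cpm at 1.23 (adjusted p = 0.00166 by edgeR). Bdkrb2 and Xpnpep1 were called there as well (adjusted p = 0.016 and 0.00173 by edgeR).

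Of 19 listed symbols of related peptidases, 18 were in the table and 13 were tested, and 3 rose, 4 fell and 6 did not pass (median -0.02). Among all genes tested the shares were 16.9% higher and 13.9% lower. Phex, a relative of neprilysin, rose by 3.53 (SE 0.98, adjusted p = 0.0209 by edgeR). It had 6, 0, 68 and 24 counts in CD249− and 302, 443, 198 and 290 counts in CD249+ libraries, and the call did not hold when mouse 2 or 10 was left out, or the CD249− cells of mouse 10, or the CD249+ cells of mouse 7 (adjusted p up to 0.086 by edgeR). The puromycin-sensitive aminopeptidase gene Npepps and 2010111I01Rik rose by 0.40 and 0.67, the former not being called when mouse 8 was left out (adjusted p = 0.0604 by edgeR). Ece1, which encodes an endothelin-converting enzyme, fell by 1.18, Dpp4 by 1.16, Rnpepl1 by 0.61 and the leukotriene A4 hydrolase gene Lta4h by 0.51. With mouse as a block 5 of these peptidases rose in place of 3, with Ece2 and Dpp7 added, and 6 fell in place of 4, with Rnpep and Erap1 added.

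Genes that couple or damp the type 1 receptor's Gq signal were all tested: 4 of 13 rose, 6 fell and 3 did not pass, with a median of -0.37. All genes tested gave 16.9% higher and 13.9% lower. The regulators of G protein signalling Rgs2 and Rgs4 rose by 1.96 and 1.88, the receptor kinase gene Grk5 by 0.98 and the NADPH oxidase gene Nox4 by 3.05. Nox4 stood at 15.2 to 25.7 CPM in CD249− and 148 to 195 CPM in CD249+ libraries. The G protein genes Gnaq and Gna11 fell by 0.70 and 0.41, the phospholipase C genes Plcb1, Plcb2 and Plcb4 by 1.33, 1.56 and 0.89, and the arrestin gene Arrb2 by 0.62. The Gna11 and Arrb2 calls did not hold when mouse 7, 8 or 10 was left out, nor when certain single libraries were: the CD249− cells of mouse 2 and the CD249+ cells of mice 7 and 8 for Gna11, and either fraction of mouse 7 for Arrb2 (adjusted p up to 0.0695 and 0.113 by edgeR). Rgs4 was not called when mouse 7 or 8 was left out (adjusted p up to 0.1 by edgeR). These fits did not pair the fractions. With all libraries and mouse as a block, Gna11, Arrb2 and Rgs4 were called (adjusted p = 0.00296, 0.0341 and 0.00756 by edgeR).

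**Figure D5:**
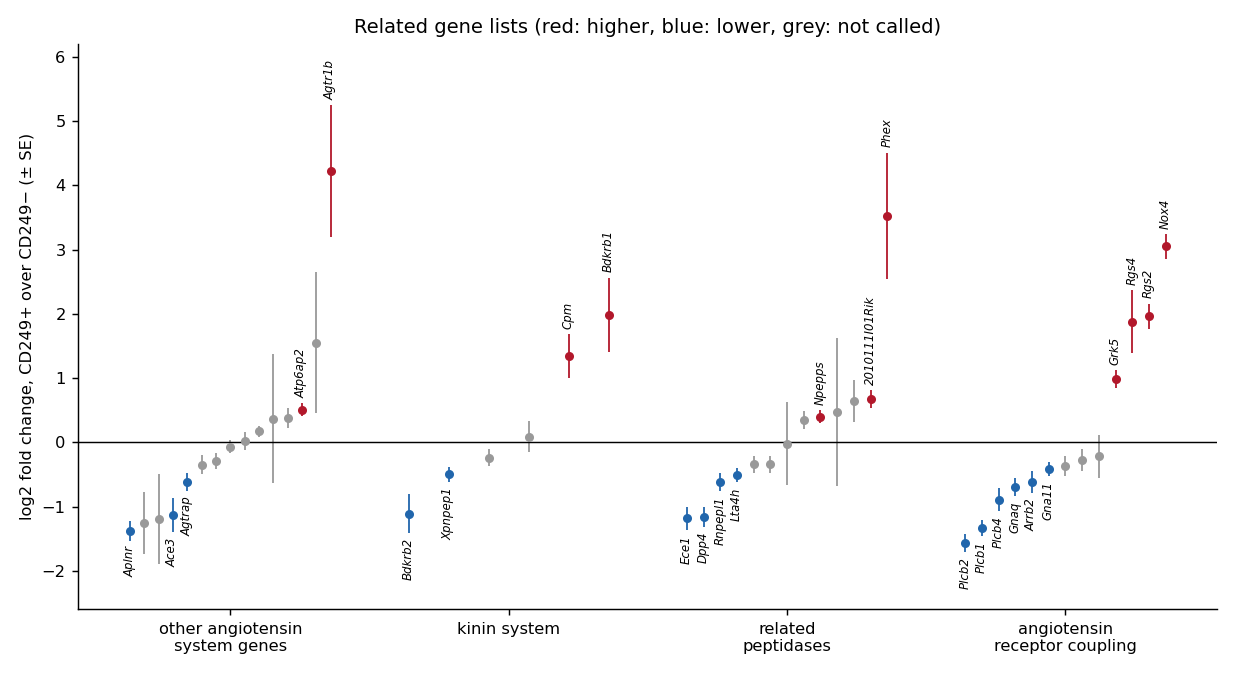
Log2 fold change, CD249+ over CD249− (points, SE as bars), of the tested genes in 4 lists of related genes; red points were called higher, blue lower and grey not called. Agtr1b at 4.22, Phex at 3.53 and Nox4 at 3.05 lie furthest above 0, and Plcb2 at -1.56 furthest below.

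Across the 8 libraries, the profiles most like those of the 9 genes were sought by Pearson's r of log2 CPM among 10087 genes of at least 10 CPM in either fraction. The libraries share the difference between fractions, so a high r is a description only. For Enpep the closest were Pla2r1 (r = 0.998), Itga8 (0.997) and Cxcl14 (0.996), which rose by 3.40, 3.81 and 4.58. Itga8 encodes an integrin chain and is 1 of the alveolar fibroblast markers, and Pla2r1 encodes a phospholipase receptor. Mme was closest to Klf15 (0.994), Eva1b (0.993) and Gcat (0.992). For Ace the closest were Unc45b (0.998), Tnfsf10 (0.997) and Lrrc8a (0.997), which fell by 1.32, 1.47 and 1.34. Agt was closest to Rdh10 (0.989), Bscl2 (0.979) and Cyp20a1 (0.975), which rose by far less than Agt, by 0.74, 0.54 and 0.60. Prcp was closest to Fzd6 (0.990), Reep3 (0.990) and Tmem71 (0.985). For the receptors the values were lower: Clock (0.971), Cbx2 (0.951) and Cbx7 (0.927) for Agtr1a, and Rsph3a (0.947), Plcd3 (0.935) and Phex (0.935) for Agtr2. Anpep was closest to Itih5 (0.945), Csf1 (0.933) and Col15a1 (0.911), and Lnpep to Tnip2 (0.920), Hcfc2 (0.919) and Ccdc50 (0.918).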

How the data were processed

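Sorted lung cells were sequenced after oligo(dT) priming and amplification with SMART-Seq V4 from 10 ng RNA and Nextera XT, as single reads of 75 bp, per the labels' protocols. Such libraries do not mark strand and count amplified reads rather than molecules. Values in the table the authors deposited are expected counts per gene (12% not whole). Per the submitters' processing notes, RSEM 1.2.28 and STAR 2.6.1 were among the tools, beside R 3.6.3 with DESeq2 1.26.0 and bcl2fastq 2.20, with no roles stated. GRCh38, the build in those notes, is human while the identifiers are mouse, so the build used remains unknown. The 92 spike-in rows were 0 and left out.

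Counts were rounded, filtered with filterByExpr (14524 genes kept), scaled by TMM and tested with edgeR 4.0.16 (quasi-likelihood F test, group as the only term, two-sided, Benjamini-Hochberg over all genes, threshold 0.05) in R 4.3.3. The script was tested on simulated data. Alternatives were DESeq2 1.42.0, limma-voom 3.58.1, other scalings and filters, mouse as a block, and each library or mouse left out. The leave-out fits had group as the only term, so they did not pair the fractions. A mouse number marks 1 lung in both fractions, per the series' design text. Across genes (not independent replicates), deviations from group means correlated at 0.132 to 0.285 within mice and -0.212 to 0.0515 between mice, so the numbers pair the libraries. CPM is TMM-scaled, and log2 CPM used a prior count of 2. TPM used merged exon lengths of GENCODE M21 (GRCm38), found for 99% of identifiers without version. Exact permutation tests enumerated all assignments of 4 against 4 libraries, or, as an alternative added after seeing the data, swaps within mice, with adjustment over the 18 tests. The 9 genes, 4 related lists and 10 marker lists were chosen with earlier results of these data known. Named are the 9 genes, called list members and those whose level is described, the 3 profiles most like each, and the genes of the 3 gate proteins. A gene of the related lists is not reported here.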

Additional observations from a re-analysis of the deposited data

Results flagged for a closer look

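Among 70 groups of 4 libraries checked (the 9 genes and the called related genes in each fraction), 6 had 1 library far from the other 3 by Dixon's ratio. Chance gives such a library in about 1 of 20 groups, and 5 of the 6 lay in mouse 2. Ace was 1194 CPM in the CD249+ library of mouse 2, against 731 to 798 CPM in the other 3. The endothelial marker mean of that library was 8.79 log2 CPM, against 7.99 to 8.13 in the other CD249+ libraries, and relative to it Ace stood at 1.43 against 1.51 to 1.54. The same library had 108 CPM of Dpp4 and 196 CPM of Rnpepl1, above the other 3. The CD249− library of that mouse had 268 CPM of Rnpepl1, above the others, and 66.6 CPM of 2010111I01Rik, below them. Cpm reached 161 CPM in the CD249+ library of mouse 10, the one in which Sftpc reached 7551 CPM.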

How the results depend on the processing

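Of the 9 genes, 6 (Enpep, Agt, Ace, Agtr2, Mme and Prcp) kept their direction and side of the threshold in every alternative that could test them. Requiring at least 10 CPM in 4 libraries left Agt, Agtr1a and Agtr2 untested, and gave 2 of the 9 genes higher, 1 other angiotensin gene higher and 1 kinin gene lower. With library size only, 5 other angiotensin genes were lower. With mouse as a block (the replicate block) 5 related peptidases were higher, and 0 of the 18 comparisons with marker references could pass when fractions were swapped within mice, a test added after seeing the data. Ptprc was called with the block. The 9 genes and the related genes called without it kept their calls, while Apln, Ece2, Dpp7, Rnpep, Erap1 and Arrb1 were added. The block gave 5298 calls over all genes against 4468. Leaving out libraries or mice gave 0 to 2 kinin genes higher and 1 to 2 lower, and 1201 to 1979 genes lower over all genes. Lnpep ran from -0.01 (without the CD249+ library of mouse 8) to 0.34 with libraries or mice left out. Epcam turned to -0.12 with limma-voom, -0.0032 with library size only, -0.11 with the block, -0.002 without the CD249− library of mouse 2, and -0.35 without the CD249+ library or both libraries of mouse 10, and its other values with libraries or mice left out reached 0.41. The causes were not tested, other than the smaller sets of genes or libraries that these fits hold. Counts of 0 to 61 limit what can be said of Agtr2.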

Other observations

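In the CD249+ library of mouse 10, where Agtr1a was at 2.67 CPM against 7.86 to 15.6 CPM in the other 3, several pericyte markers were also lowest. Higd1b stood there at 4.28 CPM against 12.7 to 19 CPM, Cox4i2 at 10.9 against 29.7 to 35.9 CPM, and Ndufa4l2 at 9.87 against 19.5 to 22.9 CPM. Trpc6 was at 8.22 against 14.1 to 17.4 CPM, Cspg4 at 34.9 against 44.5 to 50.4 CPM, and Notch3 at 44.8 against 54.5 to 93.2 CPM. Of the 9 pericyte markers these 6 were lowest in that library, while Kcnj8, Abcc9 and Rgs5 lay within the range of the other 3. Enpep and Mme were highest in that library, at 329 and 119 CPM. These genes were picked with their values in view, and a relation was not tested with 4 libraries a fraction.

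Agt and Agtr1b, both scarce in CD249− cells, were lowest in the same 2 of 4 CD249− libraries, those of mice 7 and 8, with 1 and 1 counts of Agt and 0 and 0 counts of Agtr1b. Enpep had 171 and 123 counts there and 227 and 576 counts in mice 2 and 10. Whether these values share a source was not tested.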
